A study of Mus musculus with 4 samples.

Results

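The set described here holds genes of DNA replication and of mitosis, kept as an S phase group and a mitosis group. They were chosen by name from textbook knowledge of the cell cycle, with earlier results of these data known. Of the 53 genes listed, 52 of the 12393 named genes of the array were read, 24 of S phase and 28 of mitosis. Ccnb1, a mitotic cyclin, was read by no probe set with 1 symbol and has no value here. Expression was measured in wild-type C57BL/6 mouse hearts between embryonic days 10.5 and 11.0. The atrioventricular (AV) junction, where the cushions that form valves and septa arise, was compared with the ventricular region, whose walls are growing muscle. For either region, tissue of about 80 hearts was pooled. The RNA amplified was 230 ng for the AV junction pool, against 250 ng for the ventricular pool. Each region was read on 2 Affymetrix MOE430A arrays, named 1a and 1b, which makes 4 arrays. Since 1a and 1b share a replicate number they are probably readings of 1 pool, which is not stated, so p-values measure the spread between arrays and not between embryos. With 2 arrays against 2 no exact permutation test could go below p = 0.333, and the tests below come from a limma fit across 13403 probe sets.

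A dividing cell copies its DNA once in S phase and separates the copies in mitosis. Before S phase the loaders Cdc6 and Cdt1 place the Mcm2 to Mcm7 helicase on origins, which is called licensing. Cyclin E with its kinase and the helicase partners Cdc45 and GINS then fire the origins, and polymerases, the Pcna clamp and its Rfc loader copy the strands. In mitosis Cdk1 with cyclin B, Plk1 and the Aurora kinases drive entry, a checkpoint holds the chromosomes until all are attached, and the anaphase-promoting complex then starts their separation. Messengers of the S phase genes are classically controlled through E2F sites, and those of the mitosis genes through CCAAT boxes and the cell cycle homology region (CHR), which lets them peak at different times of the cycle.

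Most of these genes did not differ between the AV junction and the ventricular region beyond the threshold. Of the 50 members tested, 2 rose in the AV junction and 0 fell, where passing meant a limma adjusted p of at most 0.05. The 2 were Fen1, the nuclease that trims the flaps of lagging-strand fragments, and Tpx2, which activates Aurora A and builds the spindle. Over all 8409 genes tested 15.0% passed in either direction (8.47% higher and 6.54% lower in AV junction tissue). With 1 array left out in turn, 299 to 368 genes passed higher and 167 to 313 lower. The S phase group had 1 of 23 passing (4.35%) and the mitosis group 1 of 27 (3.70%). At an unadjusted p under 0.05 stood 12 of the 50 members (24.0%), 7 with higher and 5 with lower values in AV junction tissue, against 33.1% of all genes, 15.9% higher and 17.1% lower. Tyms, the enzyme that makes thymidylate, and Cenpe, a kinetochore motor, lay below the floor of a mean scaled intensity of 100 and were not tested.

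Differences in both groups lay around 0. On the log2 scale (AV junction minus ventricular region, from scaled intensity plus 50) the median difference was 0.00 for S phase genes and 0.10 for mitosis genes, beside -0.06 for all genes tested. With all probe sets of a gene averaged, it was -0.06 for S phase genes and -0.08 for mitosis genes, beside -0.07 for all genes. S phase genes ran between -0.38 and 0.49 and mitosis genes between -0.40 and 0.74, while all genes ran between -3.10 and 6.20. The median size of the difference, without its sign, was 0.23 in the members and 0.28 in all genes. A fitted difference of at least 1.5-fold was reached by 1 member, Tpx2, against 17.3% of all genes. For 32 members (64.0%) the 95% interval of the difference lay wholly within 1.5-fold either way, against 33.9% of all genes, and for 49 members (98.0%) it lay within 2-fold, against 78.3%. For the other 18 members the interval reached past 1.5-fold. A smaller standard error gives a narrower interval, and its median was 0.13 in the members and 0.17 in all genes. Median brightness on the log2 scale was 9.90 in the members and 8.86 in all genes. The part of this precision in the shares of intervals was not tested. In 31 members (62.0%) the arrays of the regions did not overlap, 17 of them higher and 14 lower in the AV junction. That share is near the 62.4% of all genes, 27.7% higher and 34.7% lower.

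**Figure D1:**
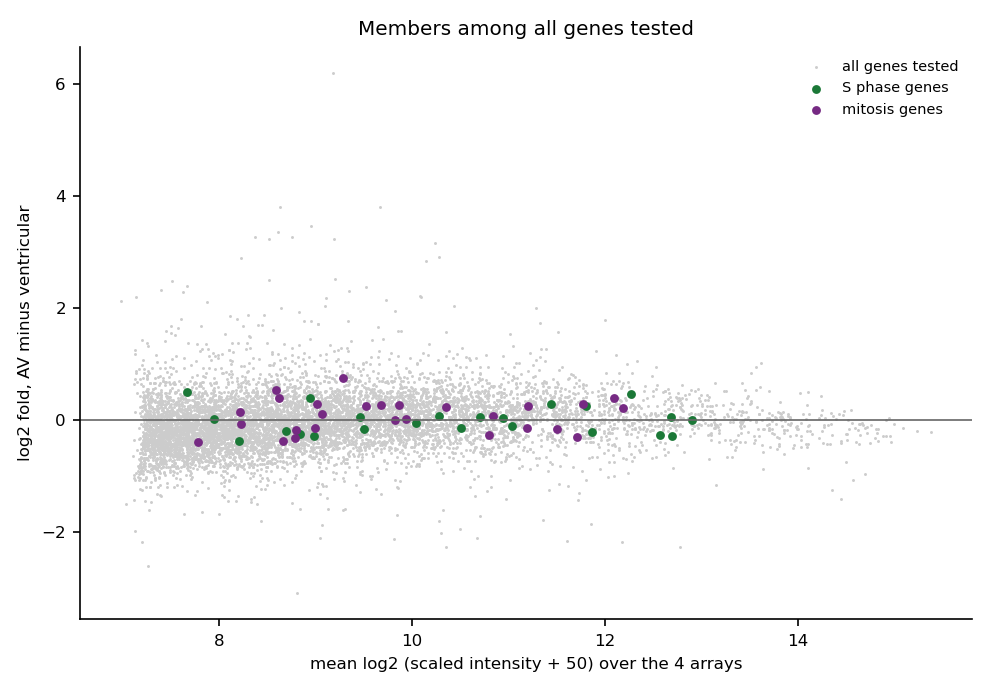
Log2 difference (AV junction minus ventricular region) against mean log2 brightness for each gene tested, with S phase genes and mitosis genes marked over all genes. Most members lie in the upper part of the brightness range, and all have a difference between -0.40 and 0.74.

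The share of genes that passed grew with brightness over the whole array. Of the 50 members 21 lay in the brightest of 5 equal bins of mean brightness, where 28.5% of all genes passed and 1 member did. The next bin held 10 members, of which 0 passed against 20.1% of all genes, and the middle bin held 13, of which 1 passed against 13.7%. The 2 dimmest bins held 5 and 1 members and 0 calls. All 50 were brighter than the brightest bacterial control probe set on each of the 4 arrays.

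Markers of cell types were read as well. Their lists were chosen with earlier results of these data known, so the counts are no independent check of the regions. Of 12 cushion mesenchyme markers 10 rose in the AV junction, against 8.47% of all genes. Of 12 ventricular muscle markers 10 fell there, against 6.54% of all genes. Of 11 erythroid markers 7 fell in the AV junction, with summed intensities of 18601 and 18489, against 45422 and 50918 in the ventricular region, and Epb42 and Tspo2 lay at or below the bacterial control on all arrays. Hepatic markers summed to 7727 and 7420 in the AV junction, against 948 and 847 in the ventricular region, with 3 of 6 rising and Fgb at or below the control. The 3 were Afp, Ttr and Alb, and Afp alone had 5214 and 4665 in the AV junction, against 17.1 and 18.8 in the ventricular region. Apoa2, Foxa2 and Hnf4a had log2 differences of 0.28, 0.06 and -0.37 and did not pass. Arrays of a region correlated at 0.98 and 0.979, and arrays of different regions between 0.947 and 0.95. The part of these other cells in the members' values was not tested, and in pooled tissue fewer cells of a type and less RNA per cell cannot be told apart. Where each array's log2 median was set equal instead, the median of all genes stood at 0.10 in place of -0.06, that of S phase genes at 0.16 and that of mitosis genes at 0.26, and calls over all genes were 1208 higher and 286 lower, against 712 and 550. Under that scaling 2 S phase genes and 4 mitosis genes passed higher.

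A promoter window of 300 bases, from 250 before to 50 after a gene's start, was available from RefSeq (GRCm38.p6) for 45 members. Both strands were searched, and overlapping matches were counted separately. The E2F words were TTTCCCGC, TTTGGCGC, TTTCGCGC and TTTGCCGC, the CHR words TTTGAA and TTCGAA, and the CCAAT box was CCAAT. An E2F word stood in 9 of 24 windows of S phase genes (37.5%, 95% exact binomial interval 18.8 to 59.4%), in 1 of 26 windows of mitosis genes (3.85%, 0.0973 to 19.6%) and in 2.26% of all 32851 windows of the table. A CHR word stood in 20 of 26 windows of mitosis genes (76.9%, 56.4 to 91%), in 5 of 24 of S phase genes (20.8%, 7.13 to 42.2%) and in 19.2% of all. A CCAAT box stood in 84.6% of the windows of mitosis genes, in 54.2% of those of S phase genes and in 37.4% of all. Both a CHR word and a CCAAT box were found in 73.1% of the windows of mitosis genes, 16.7% of those of S phase genes and 7.52% of all. A gene with alternative starts has more than 1 window, so the windows are not all separate genes. Those of Prc1 overlap and share sequence, while those of Fen1, Lig1 and Mcm7 do not overlap. A match describes letters and not a bound factor.

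**Figure D2:**
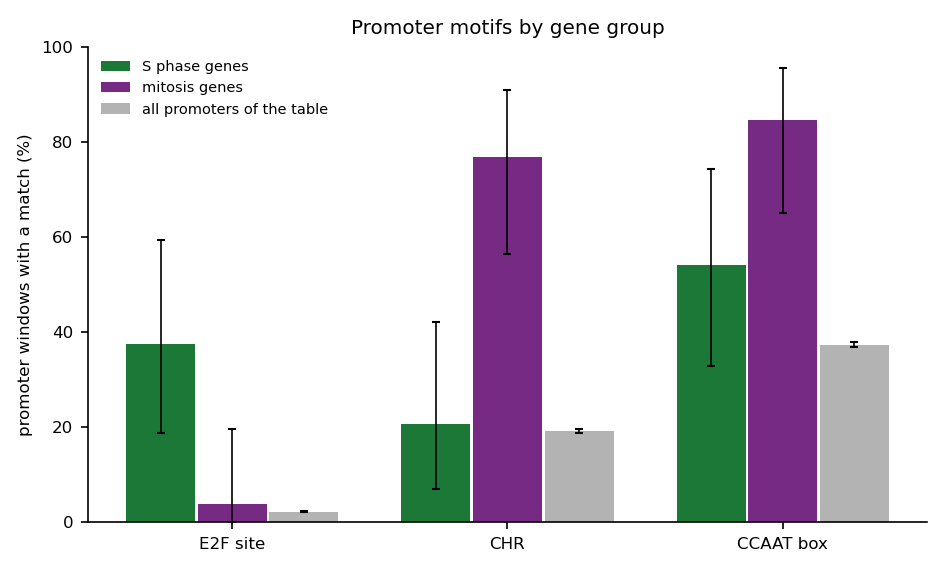
Percent of promoter windows that hold an E2F word, a CHR word or a CCAAT box, in S phase genes (24 windows), mitosis genes (26 windows) and all 32851 windows, with 95% exact binomial intervals as error bars. E2F words are most frequent in the S phase windows (37.5%), and CHR words in the mitosis windows (76.9%).

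An E2F word stood in 9 of 24 S phase windows. The S phase windows below include windows with and without one. They belong to the members with the smallest p that have a window, Fen1 and Cdt1, and to Mcm6, which was added after its matches were seen. Sequences run 5′ to 3′ on the gene's strand, and capitals mark matches on either strand. Fen1 lies at chr19:10204344-10204643 (minus strand) and has 1 CHR word and no E2F word in the window shown, the one of its 2 windows with most matches. Cdt1 lies at chr8:122567765-122568064 (plus strand) and has 1 E2F word, close behind the start. Mcm6 lies at chr1:128359656-128359955 (minus strand) and has 3 E2F words, of which 2 overlap, and 2 CCAAT boxes.
Fen1: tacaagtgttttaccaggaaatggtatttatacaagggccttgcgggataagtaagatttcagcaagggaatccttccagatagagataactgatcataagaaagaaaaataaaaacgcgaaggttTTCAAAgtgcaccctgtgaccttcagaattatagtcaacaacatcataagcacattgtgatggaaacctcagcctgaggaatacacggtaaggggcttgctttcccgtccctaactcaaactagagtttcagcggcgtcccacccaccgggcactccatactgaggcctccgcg
Cdt1: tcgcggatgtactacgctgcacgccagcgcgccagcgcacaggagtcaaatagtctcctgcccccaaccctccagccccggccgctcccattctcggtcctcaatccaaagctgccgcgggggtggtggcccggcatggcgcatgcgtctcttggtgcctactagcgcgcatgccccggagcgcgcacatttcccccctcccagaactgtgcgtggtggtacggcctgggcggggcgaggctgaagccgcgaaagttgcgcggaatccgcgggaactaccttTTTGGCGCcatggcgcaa
Mcm6: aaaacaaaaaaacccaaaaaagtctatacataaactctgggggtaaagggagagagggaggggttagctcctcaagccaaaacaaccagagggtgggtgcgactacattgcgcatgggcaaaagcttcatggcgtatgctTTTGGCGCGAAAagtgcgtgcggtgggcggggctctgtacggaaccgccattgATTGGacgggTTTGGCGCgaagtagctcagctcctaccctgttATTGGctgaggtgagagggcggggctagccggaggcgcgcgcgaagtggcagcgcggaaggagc

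The mitosis windows below show how CHR words and CCAAT boxes stand together. Top2a and Plk1 have the smallest p among mitosis genes with a window, and Cdk1 was added after its matches were seen. Top2a lies at chr11:99024140-99024439 (minus strand) and has 4 CHR words and 6 CCAAT boxes. Plk1 lies at chr7:122159185-122159484 (plus strand) and has 1 of each. Cdk1 lies at chr10:69352863-69353162 (minus strand) and has 2 CHR words, 3 CCAAT boxes and the 1 E2F word found in the mitosis group.
Top2a: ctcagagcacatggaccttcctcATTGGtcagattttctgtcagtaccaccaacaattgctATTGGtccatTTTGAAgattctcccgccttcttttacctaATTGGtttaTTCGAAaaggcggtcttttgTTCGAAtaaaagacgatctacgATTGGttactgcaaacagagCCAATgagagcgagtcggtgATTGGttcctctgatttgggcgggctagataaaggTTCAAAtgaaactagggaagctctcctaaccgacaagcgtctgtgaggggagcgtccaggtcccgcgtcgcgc
Plk1: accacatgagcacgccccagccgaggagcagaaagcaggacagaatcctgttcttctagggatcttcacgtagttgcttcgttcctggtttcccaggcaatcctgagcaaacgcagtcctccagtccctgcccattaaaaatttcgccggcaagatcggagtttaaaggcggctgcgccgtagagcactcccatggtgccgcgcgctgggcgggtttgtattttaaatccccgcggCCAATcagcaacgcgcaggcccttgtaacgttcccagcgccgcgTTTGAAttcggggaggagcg
Cdk1: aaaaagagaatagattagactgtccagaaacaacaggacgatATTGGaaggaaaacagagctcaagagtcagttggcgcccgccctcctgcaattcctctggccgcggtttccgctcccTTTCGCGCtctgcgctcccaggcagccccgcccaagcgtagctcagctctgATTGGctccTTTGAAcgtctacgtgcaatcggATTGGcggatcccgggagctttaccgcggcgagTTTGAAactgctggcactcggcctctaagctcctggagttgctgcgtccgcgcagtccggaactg

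Among the 9 licensing genes 0 passed in limma, with a median log2 difference of 0.00, and 2 (22.2%) had an unadjusted p under 0.05, against 33.1% of all genes. These were Cdt1 and Mcm6, both with lower values in the AV junction. Cdt1 had scaled intensities of 5940 and 5991 in the AV junction, against 7099 and 7543 in the ventricular region. The arrays of the regions did not overlap, and the log2 difference was -0.29 ± 0.09 (SE, n = 2 arrays each, adjusted p = 0.0658). It passed in 5 of 17 alternative settings, with adjusted p between 0.0151 and 0.413 over the 17. Mcm2 had 2483 and 3688 in the AV junction, against 2621 and 2335 in the ventricular region, a log2 difference of 0.29 ± 0.18 (adjusted p = 0.305), and it passed without array 1a of the AV junction (log2 difference 0.57, adjusted p = 0.0466). One AV junction array lay among the ventricular arrays, so that the regions overlapped. In the brightest probe sets Mcm7 was the most even of the helicase subunits, with 7482 and 7685 in the AV junction, against 7496 and 7628 in the ventricular region. Its log2 difference was 0.00, with an interval from -0.19 to 0.20. Mcm3, Mcm4 and Mcm5 had log2 differences of 0.07, 0.03 and 0.01, and Mcm6 one of -0.22. The median of the 6 helicase subunits in these probe sets was 0.02, between -0.22 and 0.29. Dimmer tested probe sets of Mcm3 had -0.19, 0.05 and -0.55, the last without overlap of the arrays (limma adjusted p = 0.0892). Those of Mcm2, Mcm4 and Mcm6 had -0.09, -0.08 and -0.08, and those of Mcm7 had 0.18, -0.25 and -0.07. None of these passed. The loader Cdc6 had a log2 difference of -0.25, and Gmnn, which holds Cdt1 inactive after S phase begins, one of -0.11.

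Among the 4 firing genes 0 passed and 0 had an unadjusted p under 0.05, against 15.0% and 33.1% of all genes. Ccne1, cyclin E1, had the widest difference, with 156 and 275 in the AV junction, against 320.2 and 255 in the ventricular region. Those values overlap, and the log2 difference of -0.38 ± 0.25 had an adjusted p of 0.341. Ccne2, cyclin E2, stood at -0.16, the helicase partner Cdc45 at -0.21 and the GINS subunit Gins1 at 0.04.

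Of the 7 genes that copy DNA at the fork, Fen1 rose. It had 5227 and 6311 in the AV junction, against 4144 and 4203 in the ventricular region, with no overlap. The log2 difference was 0.46 ± 0.11, or 1.37-fold, with a 95% interval from 0.20 to 0.72 (limma adjusted p = 0.0359). This probe set carries the suffix of sets that may match several transcripts, and a dimmer second probe set of Fen1 had 185 and 157 in the AV junction, against 225 and 213 in the ventricular region. Its log2 difference of -0.28 had the opposite sign and did not pass (adjusted p = 0.357). The call on Fen1 was lost without array 1b of the AV junction (adjusted p = 0.135), without ventricular 1a (0.138) and without ventricular 1b (0.123), and it was passed in 10 of 17 alternative settings.

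The clamp Pcna had 6583 and 6682 in the AV junction, against 6014 and 6912 in the ventricular region, an overlap, with a log2 difference of 0.04 ± 0.10 (adjusted p = 0.808). Its interval, from -0.19 to 0.27, lies within 1.5-fold. The polymerase subunits Pola1 and Prim1, which lay the primers, had log2 differences of -0.29 and -0.15. The clamp loader subunits Rfc3 and Rfc4 had 0.49 and 0.05, and Lig1, the ligase that seals the fragments, had -0.06. Rfc3 was the dimmest member tested, and its difference did not pass (adjusted p = 0.163). Its other tested probe set, dimmer still, had the opposite sign, with -0.23 (adjusted p = 0.583).

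Of nucleotide supply 3 enzymes were tested and 0 passed, while all 3 had an unadjusted p under 0.05 (against 33.1% of all genes). Tk1, the thymidine kinase of S phase, had 539 and 483 in the AV junction, against 350.3 and 416 in the ventricular region. The arrays did not overlap, and the log2 difference was 0.38 ± 0.15 (adjusted p = 0.144). In their brightest probe sets the subunits of ribonucleotide reductase, which work as 1 enzyme, had differences of opposite sign. Rrm1 had 3809 and 3884 in the AV junction, against 3110 and 3409 in the ventricular region, a log2 difference of 0.24 (adjusted p = 0.138). Rrm2 had 5549 and 5390 in the AV junction, against 6592 and 6652 in the ventricular region, a log2 difference of -0.27 (adjusted p = 0.0743). Neither passed. A dimmer probe set of Rrm1 had -0.10 (adjusted p = 0.76), the sign of Rrm2. The dimmer probe sets of Rrm2 had -0.21 and -0.50 and did not pass.

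**Figure D3:**
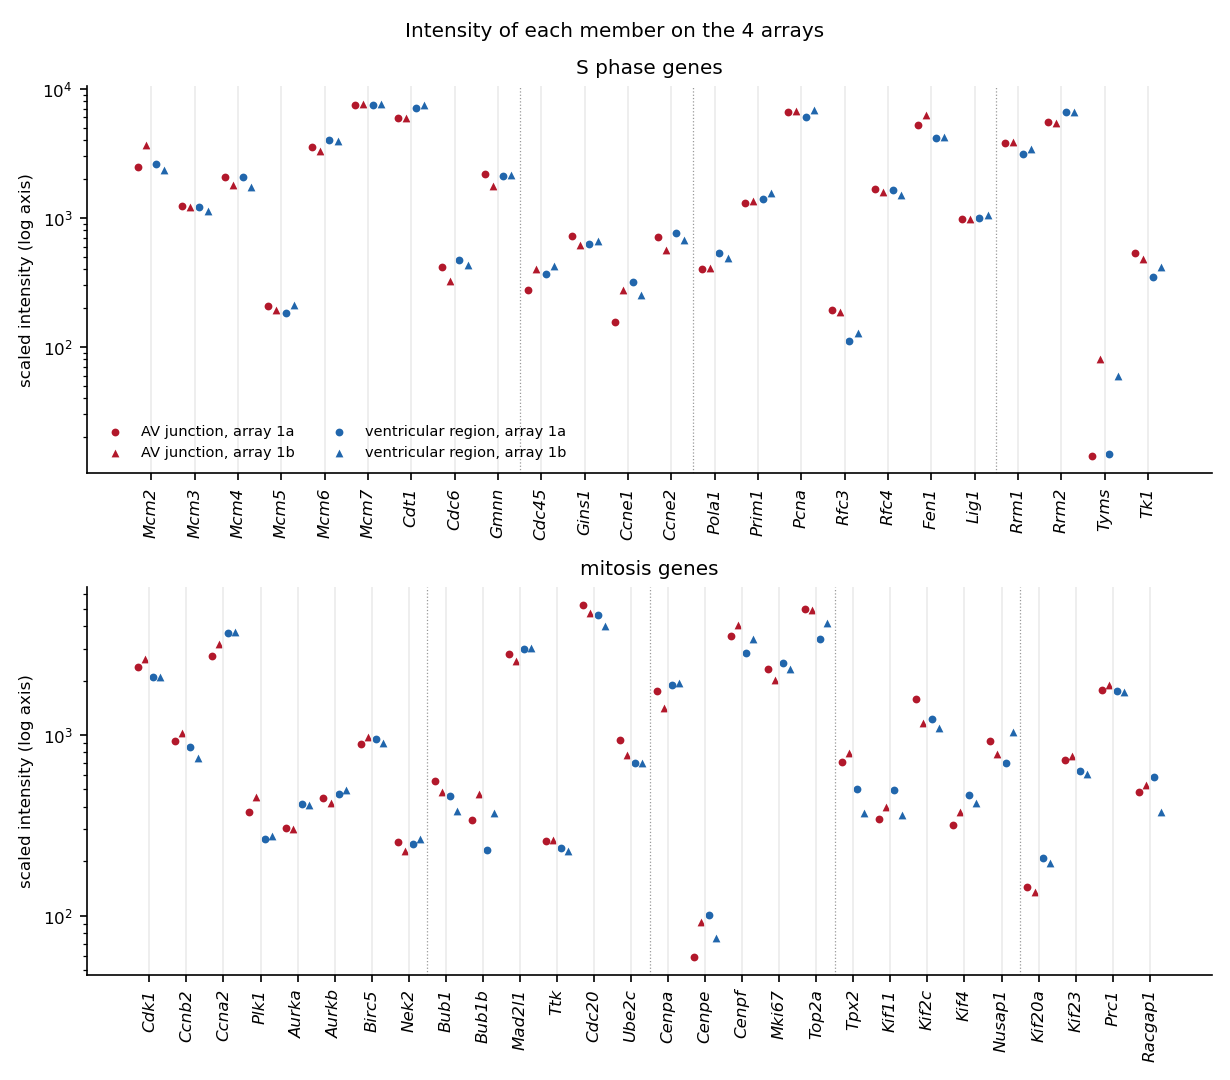
Scaled intensity on a log axis of each member on each of the 4 arrays, AV junction arrays left of ventricular arrays, S phase and mitosis genes apart. For most genes the arrays of both regions lie close together, with the widest gap between regions among tested genes in Tpx2, and the untested Tyms spreads between the arrays of each region.

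Of the 8 cyclins and mitotic kinases read and tested 0 passed in limma, and 4 had an unadjusted p under 0.05 (against 33.1% of all genes). Plk1, which acts at entry and at the spindle, had 375 and 452 in the AV junction, against 264 and 275 in the ventricular region. The arrays did not overlap, and the log2 difference was 0.53 ± 0.16 (adjusted p = 0.073). Cdk1, the kinase of mitotic entry, had 2389 and 2633 in the AV junction, against 2097 and 2105 in the ventricular region, a log2 difference of 0.25 ± 0.10 (adjusted p = 0.138). Its partners differed in sign. Ccna2, cyclin A2, had 2740 and 3205 in the AV junction, against 3671 and 3721 in the ventricular region, a log2 difference of -0.31 (adjusted p = 0.0927). Ccnb2, cyclin B2, had a log2 difference of 0.27. The Aurora kinases Aurka and Aurkb stood at -0.38 and -0.15, Birc5 (survivin, a partner of Aurora B) at 0.01, and Nek2, a kinase of the centrosome, at -0.08.

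None of the 6 checkpoint and anaphase-promoting complex genes passed, against 15.0% of all genes. An unadjusted p under 0.05 was reached by 0 of them, against 33.1%. Bub1b, a checkpoint protein that holds back the complex, had 337 and 471 in the AV junction, against 230.3 and 369.6 in the ventricular region. The ranges overlapped, and the log2 difference was 0.39 ± 0.24 (adjusted p = 0.305). The checkpoint kinases Bub1 and Ttk had log2 differences of 0.28 and 0.14. A dimmer probe set of Bub1 had the opposite sign, with -0.41 (adjusted p = 0.135). Mad2l1, which binds the activator Cdc20, had a log2 difference of -0.16. Cdc20 itself stood at 0.21 and Ube2c, the ubiquitin-conjugating enzyme of the complex, at 0.27.

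Among the 4 tested genes of centromere and chromosome 0 passed, against 15.0% of all genes. Top2a, which untangles sister DNA before it is separated, had 4999 and 4929 in the AV junction, against 3414 and 4163 in the ventricular region. The arrays did not overlap, and the log2 difference of 0.39 ± 0.11 had an adjusted p of 0.0611. It passed in 5 of 17 alternative settings, with adjusted p between 0.0123 and 0.429 over the 17. Mki67, the proliferation marker that coats mitotic chromosomes, had 2315 and 2022 in the AV junction, against 2502 and 2307 in the ventricular region. One AV array lay above 1 ventricular array, and the log2 difference was -0.15 ± 0.11 (adjusted p = 0.39), with an interval from -0.40 to 0.11, and it was 0.01 with the arrays' log2 medians set equal. Cenpa, the histone that marks centromeres, stood at -0.27 and Cenpf, a kinetochore protein, at 0.28. For Cenpf a dimmer probe set had the opposite sign, with -0.51 (adjusted p = 0.206).

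Of the 5 spindle genes Tpx2 rose. It had 713 and 795 in the AV junction, against 501 and 371 in the ventricular region, with no overlap. The log2 difference was 0.74 ± 0.17, or 1.67-fold, with an interval from 0.35 to 1.13 (adjusted p = 0.0285), the widest among all members. A second, dimmer probe set of Tpx2 had 263 and 201 in the AV junction, against 221 and 334 in the ventricular region. These overlapped, and its log2 difference was -0.20 (adjusted p = 0.577). The call was lost without array 1a of the AV junction (adjusted p = 0.0628), without AV junction 1b (0.106) and without ventricular 1b (0.116), and it was passed in 11 of 17 alternative settings. The motors Kif11, Kif2c and Kif4 stood at -0.18, 0.22 and -0.32 on the log2 scale, and Nusap1, which bundles microtubules near chromosomes, at 0.00. Dimmer probe sets of Kif2c had the opposite sign, with -0.07, -0.50 and -0.49, and did not pass.

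Of the 4 cytokinesis genes 0 passed, against 15.0% of all genes. Kif20a, a motor of the central spindle, had 145 and 136 in the AV junction, against 208 and 196 in the ventricular region, a log2 difference of -0.40 ± 0.20 (adjusted p = 0.215). The arrays did not overlap, but the levels were low. The other central spindle proteins Kif23, Prc1 and Racgap1 stood at 0.25, 0.07 and 0.10. For Prc1 a dimmer probe set had the opposite sign, with -0.39 (adjusted p = 0.401).

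**Figure D4:**
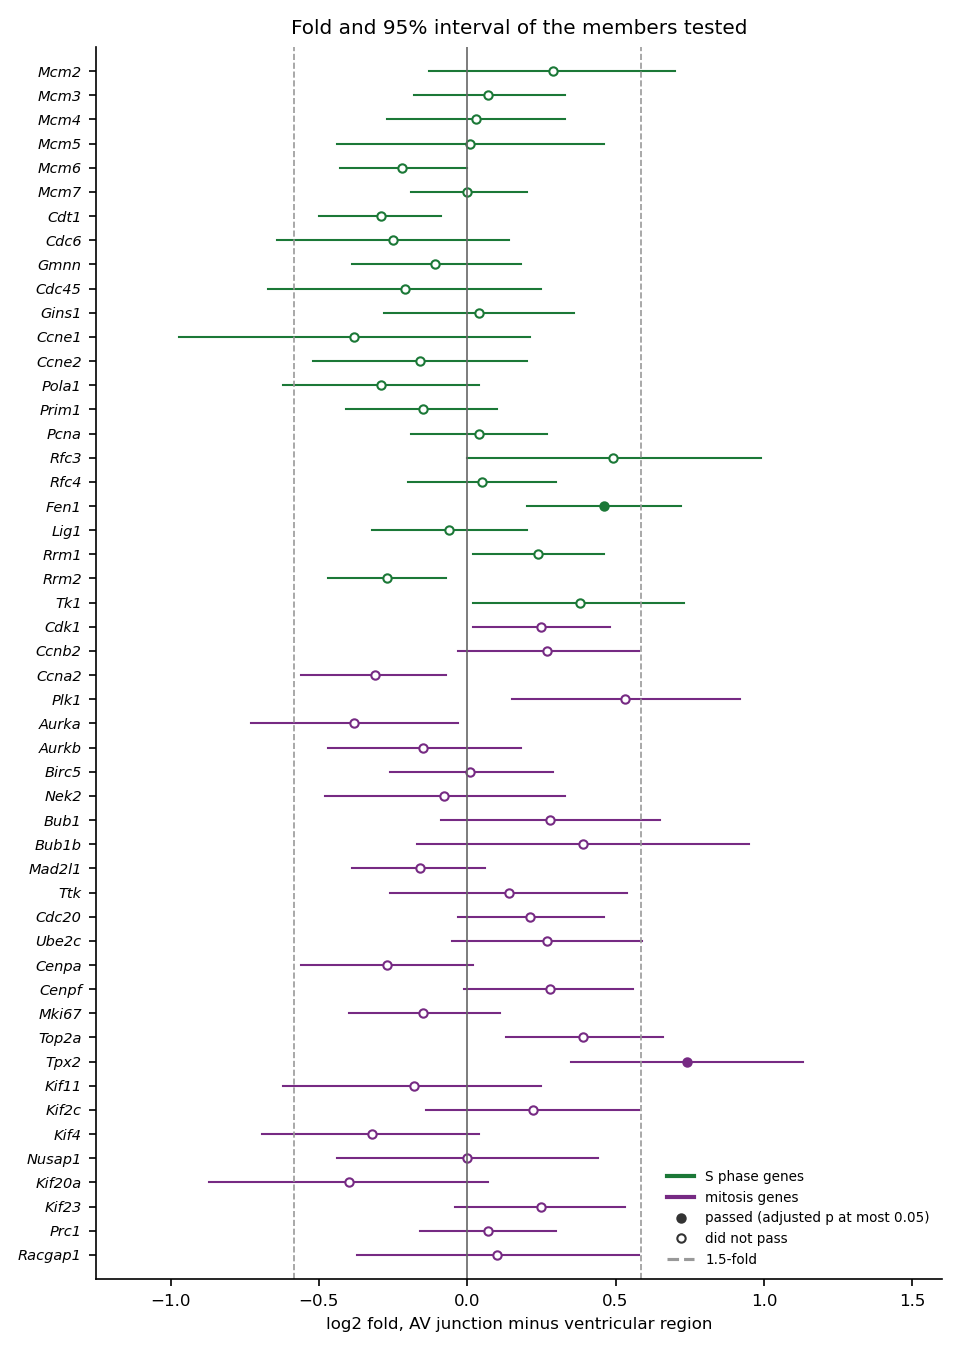
Log2 difference (AV junction minus ventricular region) of each tested member with its 95% interval, S phase and mitosis genes apart. Fen1 and Tpx2 passed, and most intervals include 0.

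Other probe sets of the same genes gave a second reading. There were 91 probe sets of members, and 39 were not the brightest of their gene. Of these 30 could be tested, in 22 genes, and 0 passed. In 14 of the 30 the sign was that of the gene's brightest probe set. The median log2 difference of the 30 was -0.19, with 25 lower and 5 higher in the AV junction, and their median brightness was 8.28 on the log2 scale, against 10.89 for the brightest probe sets of the same genes. Over all genes the dimmest bin had a median log2 difference of -0.22 and the brightest one of 0.05. The brightest bacterial control read 58.6 and 52.6 on the AV junction arrays, against 97.9 and 104 on the ventricular arrays. Actin control probe sets at the end of the messenger read brighter than those at its start. The ratios were 21.7 and 23.4 on the AV junction arrays, against 16.6 and 21.7 on the ventricular arrays. For Gapdh they were 16.3 and 15 on the AV junction arrays, against 17.4 and 18.4 on the ventricular arrays. The part of brightness, of the bacterial control level and of these end-to-start ratios in the members' signs was not tested.

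**Figure D5:**
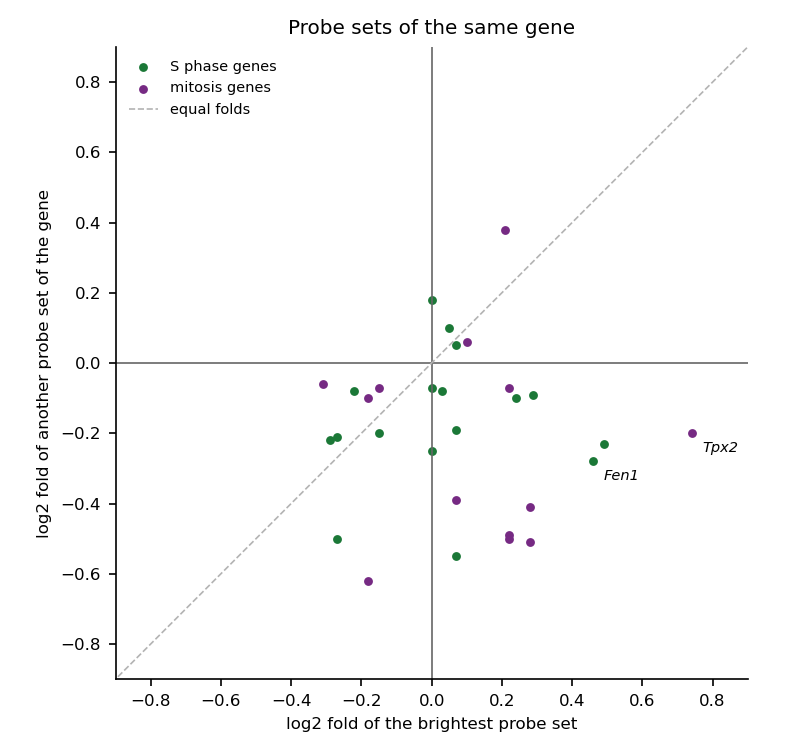
Log2 difference of the other tested probe sets of members (30) against that of the brightest probe set of the same gene. Fen1 and Tpx2 lie right of 0 and below it, with opposite signs for their probe sets.

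Genes of the pathway outside the set were listed separately. Of 31 other replication genes tested, 1 passed higher and 2 lower (9.68%, against 15.0% of all genes), with a median log2 difference of 0.07. Orc2, a subunit of the origin recognition complex, had a log2 difference of 0.62 (adjusted p = 0.0207). Cdc7, the kinase that fires licensed origins, had -0.64 (0.015), and Pold1, the catalytic subunit of polymerase delta, had -0.50 (0.0256). Dimmer probe sets of Orc2 and Pold1 had -0.30 (0.277) and -0.18 (0.546), of opposite sign for Orc2, and neither passed. Of 39 other mitosis genes 3 passed higher and 3 lower (15.4%, near the 15.0% of all genes), with a median of 0.03. Zwint, a kinetochore protein, had 0.79 (0.00466), while Kif22, a chromosome-binding motor, had -0.86 (0.00238), Tacc3, a stabiliser of spindle microtubules, had -0.81 (0.00414) and Cdc25b, a phosphatase that activates Cdk1, had -0.78 (0.0267). A dimmer probe set of Tacc3 had 0.10 and one of Kif22 had -0.23, and neither of those passed, while another of Tacc3 passed at -1.10. The other tested probe sets of Zwint had 0.37, 0.03 and 0.44 and did not pass.

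Regulators of the step before S phase were a further list. Of 11 G1 cyclins, kinases and inhibitors tested, 2 passed higher and 3 lower (45.5%, against 15.0% of all genes). Gas1, a surface protein named for growth arrest, had 1967 and 2013 in the AV junction, against 766 and 885 in the ventricular region (log2 difference 1.22, adjusted p = 0.00116), although its second probe set had -0.22 and did not pass. Cdkn1c, the kinase inhibitor p57, had 1646 and 1755 in the AV junction, against 3089 and 3299 in the ventricular region (log2 difference -0.89, adjusted p = 0.00219). Cdkn2d, an inhibitor of Cdk4 and Cdk6, had -0.82 (0.0272) and Ccnd1, cyclin D1, 0.56 (0.00959), with no overlap between the regions in either. Of the other probe sets of Ccnd1, 1 passed at 0.72 and 1 did not at 0.36. Ccnd2, cyclin D2, had the opposite sign to Ccnd1, with -0.45 (adjusted p = 0.0171). Its other tested probe sets lay between -0.98 and -0.05, and not all of them passed. Of 12 E2F, Rb and Myb-MuvB regulators 1 passed, E2f5, with a log2 difference of 0.50 (adjusted p = 0.0313) beside 0.29 in a dimmer probe set that did not pass, and the median was -0.27. The difference in shares between lists was not tested.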

How the data were processed

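Hearts of 2 regions were read on 4 arrays. Per the submitters' processing notes, the deposited linear intensity values per probe set were made by the authors with MAS5; the version is not given in the sources used here. The members and gene lists were chosen with earlier results of these data known. From the 22690 probe sets, 64 controls were set aside. Scaling brought the trimmed mean of each array (2% cut at either end) to 500, and probe sets with a mean of at least 100 were kept (13403, with 9223 left out). Log2 of intensity plus 50 was fitted with limma 3.58.1 in R 4.3.3 (lmFit, eBayes with trend, 7.43 total degrees of freedom), with region as the only term. Benjamini-Hochberg adjustment ran over all of these, with 0.05 as the threshold. A gene is its probe set with 1 symbol and the highest mean log2 intensity. Values in every array are given for members that pass, the largest difference in each role group where none passes, and Mki67, Top2a, Cdk1, Pcna and Mcm2. Mcm7, Rrm1, Rrm2 and Ccna2 were added after their values were seen. Of other lists up to 4 largest passing differences are named, and Ccnd2 was added after its values were seen. No label states that replicate numbers pair the arrays of the 2 regions. Over the probe sets tested, the 1a minus 1b differences of the regions correlated at 0.06, which cannot settle how the arrays were handled. The arrays' number limits the precision. Alternatives covered normalisation, pseudocount, floor, trend, a replicate block, the choice of probe set and each array left out, and cyclic loess was chosen after seeing the data. Using intensities as deposited drops a factor shared by the arrays (3.35), so it leaves the scaling between them as it was and gives both floor and pseudocount more weight. Plots used matplotlib 3.10.9 (Python 3.11.15).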

Additional observations from a re-analysis of the deposited data

How the results depend on the processing

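Main counts were 712 higher and 550 lower over all genes, 1 higher and 0 lower in each group of members, and 7 higher and 8 lower in the other pathway genes. Quantile normalisation, intensities as deposited and a floor of 300 each gave 1 S phase gene lower (Cdt1) and 2 mitosis genes higher (Top2a and Tpx2). Median scaling gave 1208 and 286 over all genes, 2 S phase genes (Fen1 and Rrm1) and 4 mitosis genes (Cdk1, Plk1, Top2a and Tpx2) higher, and 11 other pathway genes higher. No filter gave 438 and 269 over all genes, 0 and 0 members higher, and 4 other pathway genes higher. eBayes without trend gave 243 and 209, 0 and 0 members, and 1 and 3 other pathway genes. The replicate block gave 960 and 852 over all genes and 2 S phase genes lower (Cdt1 and Rrm2). It also gave 3 mitosis genes higher (Cenpf, Top2a and Tpx2) and 1 lower (Ccna2). No label states that replicate numbers pair the arrays, so this is only a setting. Averaging all probe sets of a gene gave 437 higher over all genes, 0 and 0 members and 1 other pathway gene higher, probe sets without _x_at and _s_at gave 0 S phase genes and 4 other pathway genes higher, and cyclic loess 1 S phase gene lower. Restricting the E2F words to TTTCCCGC and TTTGGCGC left 0 mitosis windows.

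With each array left out in turn, all genes had 299 to 368 higher and 167 to 313 lower, S phase genes 0 to 2 higher and 0 lower, mitosis genes 0 to 1 higher and 0 lower, and other pathway genes 3 higher and 3 to 6 lower. These settings leave a region with 1 array, assumed to vary like the other region's. The cause of these moves was not tested beyond the fewer samples or genes.

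Differences that changed sign were under quantile normalisation Mcm4 -0.03, Mcm7 -0.01, Rfc4 -0.01, Birc5 -0.04 and Nek2 0.02; under median scaling Gmnn 0.05, Prim1 0.00, Lig1 0.10, Aurkb 0.01, Nek2 0.08, Mki67 0.01 and Nusap1 0.16; with the mean of probe sets Mcm3 -0.17, Mcm4 -0.03, Mcm7 -0.04, Bub1 -0.06, Cenpf -0.12, Kif2c -0.21 and Prc1 -0.16; without _x_at and _s_at Mcm2 -0.09, Mcm4 -0.08, Mcm7 -0.07, Fen1 -0.28, Kif2c -0.07 and Prc1 -0.39; and under cyclic loess Mcm4 -0.05, Rfc4 -0.03, Birc5 -0.04, Nek2 0.03 and Prc1 -0.01. With 1 array left out in turn, differences that took both signs ran over these ranges: Birc5 (-0.05 to 0.07), Ccne2 (-0.32 to 0.00), Cdc45 (-0.45 to 0.03), Gins1 (-0.07 to 0.15), Gmnn (-0.25 to 0.04), Kif11 (-0.39 to 0.02), Mcm4 (-0.10 to 0.15), Mcm5 (-0.08 to 0.10), Mcm7 (-0.02 to 0.02), Nusap1 (-0.27 to 0.27), Pcna (-0.06 to 0.14), Racgap1 (-0.19 to 0.39) and Rfc4 (-0.02 to 0.12).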
